A study of Mus musculus with 6 samples.

Results

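The genes described here are those whose symbol begins with Nduf: the nuclear-encoded subunits of mitochondrial complex I, the Ndufaf assembly factors and 2 relatives that carry the family name. They were taken by that rule from the count tables, 45 of 23238 distinct symbols, and comprised 7 core subunits, 29 accessory subunits, 7 assembly factors, Ndufa4 and Ndufa4l2. Transcripts were measured by 3′ tag sequencing (QuantSeq) in the gastrocnemius, a calf muscle, of wild-type C57/BL6J mice aged 26 months, so every value is from aged muscle and no young group enters. The farnesol group (n = 3 libraries) received farnesol by mouth at 350 mg/kg for 30 days, and the vehicle group (n = 3 libraries) received 5% DMSO in saline for the same time. Farnesol is a sesquiterpene alcohol related to the farnesyl group that cells attach to proteins, and the study's title concerns the farnesylation of PARIS, a repressor of the mitochondrial regulator PGC-1α. The sample titles label the libraries of each group as biological replicates ("biol rep"), without stating that every replicate was a different mouse. The tests measure the spread between libraries so labelled.

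Complex I is the first enzyme of the respiratory chain: it oxidises NADH, passes the electrons to ubiquinone and pumps protons across the inner mitochondrial membrane. Its core subunits carry the flavin, the iron-sulfur clusters and the quinone site and have bacterial counterparts, its accessory subunits are built around that core, and the assembly factors help to put the modules together without staying in the finished enzyme. The N module takes up NADH, the Q module reduces quinone, and the proximal and distal P modules form the membrane arm. The subunits encoded in mitochondrial DNA, and Ndufb1 and Ndufaf8, were not analysed here. Skeletal muscle is rich in the enzyme, and its oxidative fibres more so than its fast glycolytic ones.

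Total counts ran from 9895700 to 12707751 per library, and all 45 members passed the filter on low counts that left 11674 genes. All 19 fibre markers listed for gastrocnemius were detected, and their summed level was 176454 to 190669 CPM in farnesol and 140035 to 207377 CPM in vehicle libraries (CPM, each gene's counts relative to the library's TMM-scaled total). The lowest of these sums and the largest TMM factor (1.14) were those of vehicle replicate 3. Farnesol replicate 1 stood apart from the other 5 libraries in its Rn45s share and its correlation with transcript length. The ribosomal RNA precursor Rn45s took 4.97% of its counts, against 14.2% and 14.8% in the other farnesol libraries and 9.92% to 15.4% in the vehicle libraries. Across tested genes, its deviations correlated with transcript length at −0.24 (Spearman), and the other libraries at 0.02 to 0.10; genes are not independent replicates. The longest annotated transcript of the members had a median of 1200 bases, and that of the tested genes 3420 bases. With Rn45s left out of the counts, 40 of the 45 members were higher in farnesol and their median log2 fold change was 0.17, the same as with it. TMM scaling rests on the bulk of genes, so leaving out this row could hardly change these values. It does not show whether the difference of farnesol replicate 1 matters. The part of transcript length in the results below was not tested.

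Complex I transcripts stood slightly higher in farnesol muscle as a group, with no single gene past the test. The summed level of the 36 subunits was 9368, 7730 and 7911 CPM in farnesol replicates 1, 2 and 3, against 7325, 7522 and 7241 CPM in vehicle replicates 1, 2 and 3. The groups do not overlap in this sum, but farnesol replicate 2 lay close to vehicle replicate 2, and farnesol replicate 1 stood well above all other libraries. As a share of all counts, with no scaling, the subunits took 1.04%, 0.727% and 0.775% in farnesol and 0.691%, 0.680% and 0.825% in vehicle libraries, and on this scale the groups overlap. A difference in the share of a cell type and a difference in RNA per cell cannot be told apart in bulk muscle.

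Farnesol was compared with vehicle by edgeR's quasi-likelihood test over all genes. It called 0 of 11674 genes (0%) at an adjusted p of 0.05, DESeq2 and limma-voom also called 0, and 351 genes (3.01%) had an unadjusted p under 0.05 in edgeR. The smallest edgeR adjusted p among the members was 0.999989. Of the 45 members, 40 had a positive log2 fold change, with a median of 0.17, against 5736 of 11674 tested genes and a median of −0.01. Without farnesol replicate 1, 36 of 45 were positive and the median was 0.09. An unadjusted p under 0.05 was reached by 3 members, all higher in farnesol (1.75% of all genes in this direction), and by 0 in the other direction (1.26%). In 8 members the 3 farnesol values all lay above the 3 vehicle values, against 4.75% of all genes; in 0 members did they all lie below, against 4.07%. With total-count scaling, 3 members had farnesol values all above the vehicle values, against 3.91% of all genes.

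**Figure D1:**
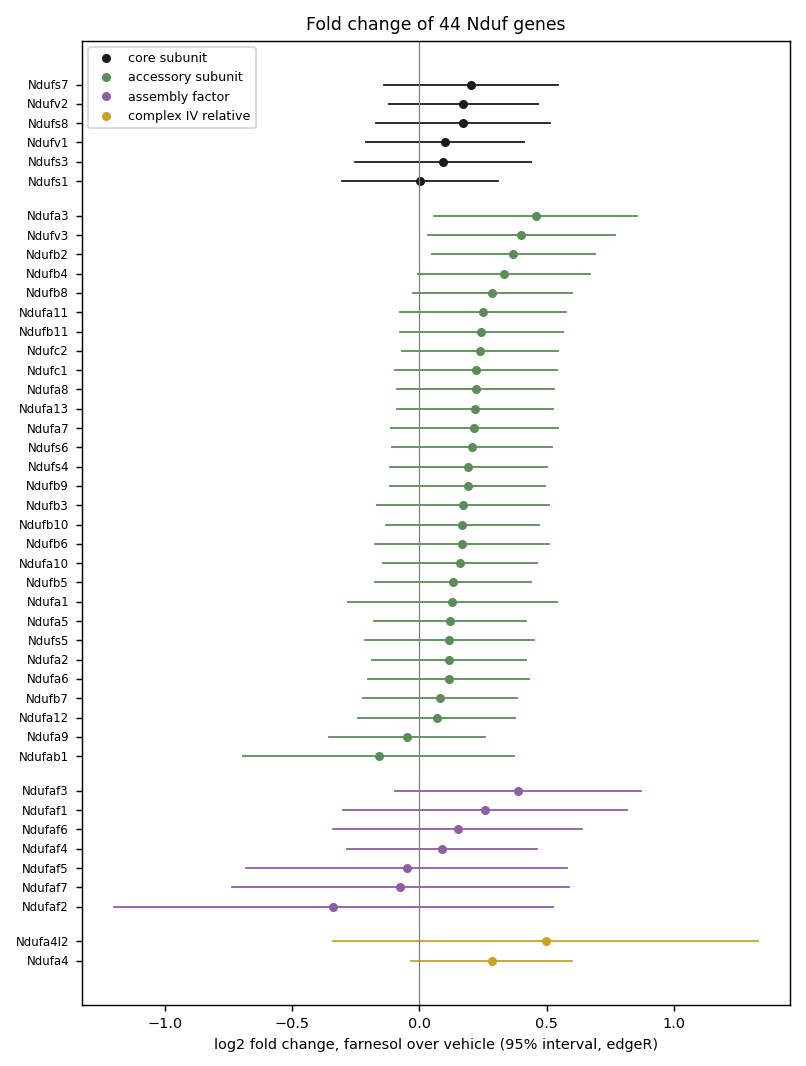
Log2 fold change, farnesol over vehicle, of 44 Nduf genes (points) with the 95% interval of edgeR's quasi-likelihood fit (lines), from 3 farnesol and 3 vehicle libraries. The intervals of Ndufa3, Ndufv3 and Ndufb2 lie above 0, and those of the other 41 include it.

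The medians of the classes lay close together. Core subunits were higher in 7 of 7 cases with a median log2 fold change of 0.13, accessory subunits in 27 of 29 with 0.19, and assembly factors in 4 of 7 with 0.09. The core count includes Ndufs1 at 0.00, and with 1 library left out 5 to 7 core subunits were higher. The class means of log2 CPM varied between libraries of the same group with a pooled SD of 0.12 for core subunits, 0.12 for accessory subunits and 0.17 for assembly factors. Without farnesol replicate 1 the order of the medians changed, to 0.02 for core subunits, 0.09 for accessory subunits and 0.17 for assembly factors. Across the fits with 1 library left out the medians ran from 0.02 to 0.19 for core subunits, 0.09 to 0.24 for accessory subunits and 0.02 to 0.20 for assembly factors. No order of the classes is therefore given.

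**Figure D2:**
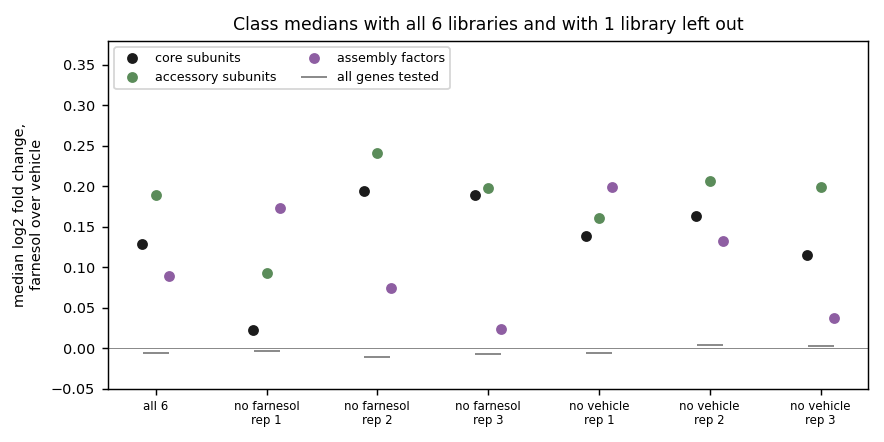
Median log2 fold change, farnesol over vehicle, of core subunits, accessory subunits, assembly factors and all genes tested, with all 6 libraries and with each library left out in turn. Core subunits stand at 0.02 and accessory subunits at 0.09 without farnesol replicate 1, while assembly factors stand at 0.17 there.

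Farnesol replicate 1 held the highest of the 6 values in 31 of 36 subunits (86.1%), against 17.7% of all genes tested. Its mean deviation from each subunit's mean over the 6 libraries was 0.27 on the log2 scale, against −0.03 and 0.01 in farnesol replicates 2 and 3 and −0.10, −0.04 and −0.11 in vehicle replicates 1, 2 and 3. Vehicle replicate 3 was the lowest library in 16 of 36 subunits, against 1911 of 11674 genes tested. This holds on the TMM scale: as an unscaled share of counts, the subunits took 0.825% there, more than in the other vehicle libraries (0.691% and 0.680%). For the assembly factors the mean deviation was likewise highest in farnesol replicate 1 and lowest in vehicle replicate 3, at 0.19, −0.16 and 0.05 in farnesol replicates 1, 2 and 3 and 0.03, 0.11 and −0.22 in vehicle replicates 1, 2 and 3. Gene by gene, farnesol replicate 1 was highest in 2 of 7 assembly factors and farnesol replicate 3 in 3 of 7. Subunits also spread more between farnesol than between vehicle libraries, with a median coefficient of variation of 12.9% and 6.01%. The larger one was in farnesol for 28 of 36. This spread includes the high values of farnesol replicate 1, and the same count over all genes was not made.

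**Figure D3:**
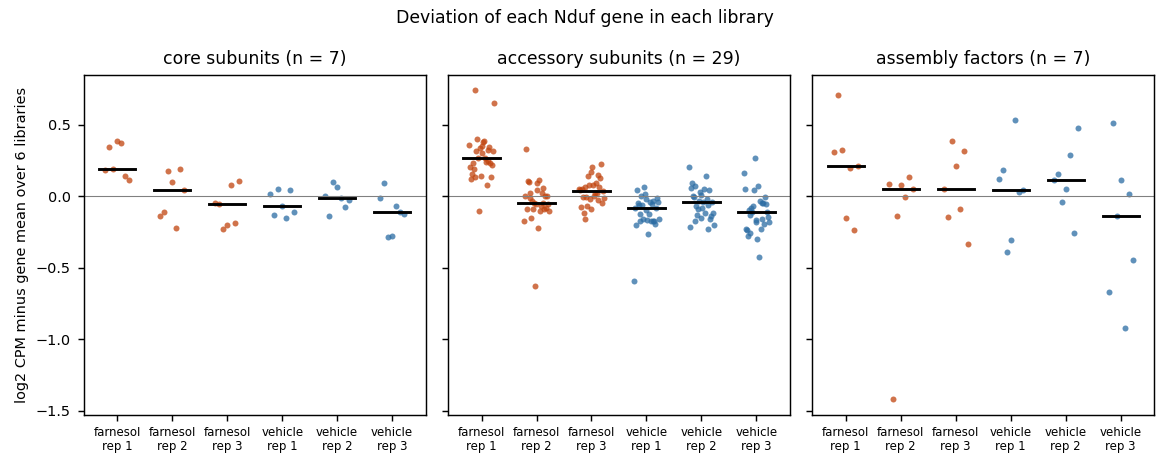
Log2 CPM minus the gene's mean over the 6 libraries (vertical axis) for each core subunit, accessory subunit and assembly factor (points) in each library; black lines are medians. The points of farnesol replicate 1 lie mostly above 0 in both subunit classes, and the assembly factors scatter widely in every library.

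The core subunits of the N module accept the electrons of NADH. Ndufv1, which binds the flavin and NADH, stood at 352, 365 and 281 CPM in farnesol and 330, 304 and 297 CPM in vehicle libraries. Ndufv2, its iron-sulfur partner (chromosome 17, 66078795 to 66101559, GRCm38), stood at 313, 299 and 312 CPM in farnesol and 269, 285 and 266 CPM in vehicle libraries. Ndufs1, the largest subunit and carrier of several iron-sulfur clusters, stood at 194, 155 and 166 CPM in farnesol and 173, 171 and 170 CPM in vehicle libraries. Only Ndufv2 of the 7 core subunits had groups that do not overlap. Its fold was 1.13 (95% interval 0.921 to 1.38, n = 3 and 3) and its log2 fold change 0.17 (SE 0.14). Ndufs1 had a log2 fold change of 0.00 (SE 0.15; 95% interval of the fold 0.809 to 1.24).

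The core subunits of the Q module carry electrons to ubiquinone. Ndufs7, which holds the last iron-sulfur cluster before the quinone (chromosome 10, 80249105 to 80256794), stood at 208, 171 and 139 CPM in farnesol and 152, 167 and 131 CPM in vehicle libraries. The groups overlap, with farnesol replicate 1 highest. Ndufs3, a subunit of the module with no cluster of its own, stood at 117, 116 and 88.0 CPM in farnesol and 107, 110 and 84.6 CPM in vehicle libraries. Ndufs8, which carries a pair of iron-sulfur clusters, stood at 136, 90.1 and 111 CPM in farnesol and 94.7, 104 and 100 CPM in vehicle libraries. Here farnesol replicate 2 was the lowest of the 6 for Ndufs8, while farnesol replicate 1 was the highest for both. The log2 fold changes were 0.20 (SE 0.17) for Ndufs7, 0.17 (SE 0.17) for Ndufs8 and 0.09 (SE 0.17) for Ndufs3. Without farnesol replicate 1 that of Ndufs8 was 0.01 and that of Ndufs7 0.04; without vehicle replicate 3 that of Ndufs3 was −0.02.

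Among the accessory subunits, 3 had an unadjusted p under 0.05, each in another module. Ndufb2, of the distal membrane arm (chromosome 6, 39592565 to 39599843), stood at 120, 100 and 112 CPM in farnesol and 86.4, 91.6 and 78.9 CPM in vehicle libraries. Its groups do not overlap, and the fold was 1.29 (1.03 to 1.61), with a log2 fold change of 0.37 (SE 0.15) that was 0.31 without farnesol replicate 1. Ndufa3, of the proximal membrane arm (chromosome 7, 3617347 to 3620165), stood at 273, 166 and 146 CPM in farnesol and 145, 145 and 137 CPM in vehicle libraries. Ndufv3, of the N module (chromosome 17, 31520115 to 31531326), stood at 276, 163 and 174 CPM in farnesol and 157, 152 and 154 CPM in vehicle libraries. For Ndufa3 and Ndufv3 the groups do not overlap, but farnesol replicate 1 stood far above the other farnesol libraries, and farnesol replicate 3 of Ndufa3 lay just above the highest vehicle library (146.0 against 145.1 CPM). Their log2 fold changes of 0.46 (SE 0.19) and 0.40 (SE 0.18) were 0.13 and 0.12 without farnesol replicate 1.

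The other accessory subunits of smallest p were Ndufb4, Ndufb8 and Ndufc2. Ndufb4, of the distal arm, stood at 181, 149 and 139 CPM in farnesol and 127, 143 and 103 CPM in vehicle libraries. Ndufb8, also of the distal arm, stood at 676, 525 and 600 CPM in farnesol and 530, 461 and 485 CPM in vehicle libraries. In both only the lowest farnesol library lay below the highest vehicle library. Ndufc2, of the proximal arm, stood at 179, 152 and 167 CPM in farnesol and 133, 137 and 152 CPM in vehicle libraries, with groups that touch but do not overlap (lowest farnesol value 152.2, highest vehicle value 151.9). The log2 fold changes were 0.33 (SE 0.16), 0.29 (SE 0.15) and 0.24 (SE 0.15), and the 95% intervals of the folds started at 0.996, 0.983 and 0.953. Without vehicle replicate 3 the log2 fold change of Ndufb4 was 0.21.

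After Ndufb8, the accessory subunits of highest CPM were Ndufb9 and Ndufa5. Ndufb9, a protein of the LYR family in the distal arm, stood at 612, 536 and 508 CPM in farnesol and 457, 495 and 500 CPM in vehicle libraries, with no overlap. Ndufa5, the accessory subunit of the Q module, stood at 512, 462 and 489 CPM in farnesol and 428, 491 and 427 CPM in vehicle libraries, with overlap. Their folds were 1.14 (0.924 to 1.41) and 1.09 (0.883 to 1.34), and the log2 fold change of Ndufb9, 0.19, was 0.11 without farnesol replicate 1. The scarce ones were Ndufab1, Ndufs5 and Ndufb6. Ndufab1, the mitochondrial acyl carrier protein, stood at 19.4, 9.96 and 15.2 CPM in farnesol and 15.5, 15.7 and 18.5 CPM in vehicle libraries, so that the highest and the lowest of the 6 were both farnesol libraries. Its log2 fold change of −0.16 (SE 0.26) was −0.40 without farnesol replicate 1 and 0.06 without farnesol replicate 2. Ndufb6, of the distal arm, stood at 88.1, 71.4 and 79.7 CPM in farnesol and 66.4, 82.7 and 63.9 CPM in vehicle libraries, with overlap.

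Of the remaining 18 accessory subunits, 17 had a positive log2 fold change, between 0.07 and 0.25, and farnesol replicate 1 was the highest library in 14. The exception was Ndufa9, a subunit at the junction of the arms (chromosome 6, 126821863 to 126849144), named after its values were seen. It stood at 114, 118 and 129 CPM in farnesol and 128, 119 and 126 CPM in vehicle libraries, and farnesol replicate 1, the highest library for most subunits, was the lowest here. Its log2 fold change was −0.05 (SE 0.15; fold 0.966, 95% interval 0.781 to 1.195). Ndufb7, a distal subunit also named afterwards, had a small but separate difference, at 127, 121 and 121 CPM in farnesol and 115, 118 and 116 CPM in vehicle libraries.

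**Figure D4:**
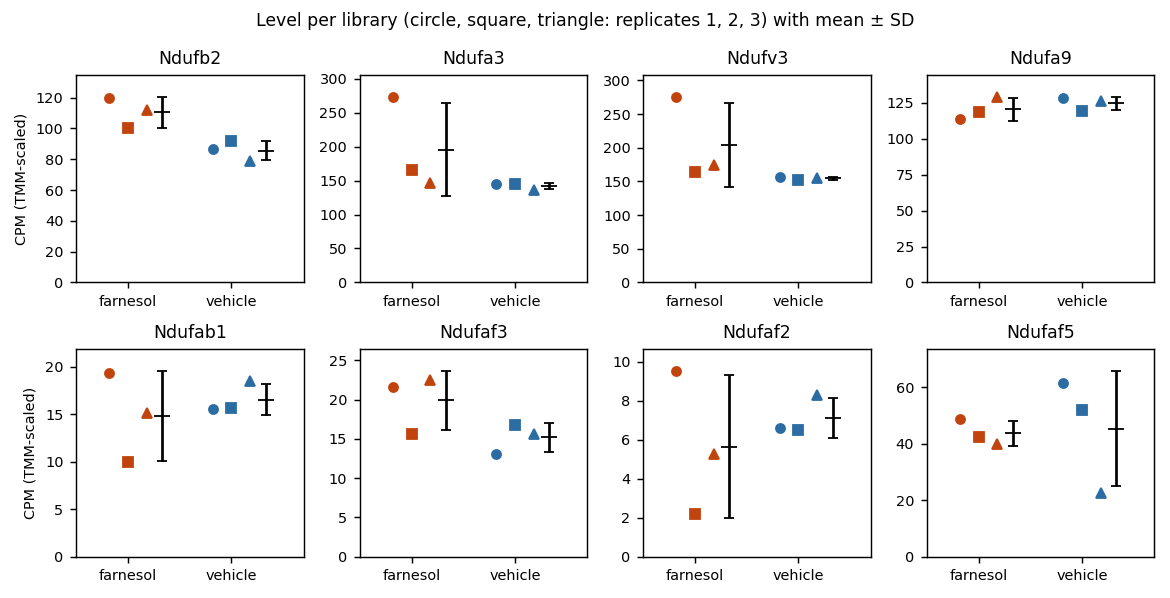
CPM in each library (circle, square and triangle for replicates 1, 2 and 3) of Ndufb2, Ndufa3, Ndufv3, Ndufa9, Ndufab1, Ndufaf3, Ndufaf2 and Ndufaf5, with the mean and SD of each group of 3 beside the points. Farnesol replicate 1 lies well above the rest in Ndufa3 and Ndufv3, and vehicle replicate 3 is the low point of Ndufaf5.

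By module, the counts were as follows. All 10 of the N module were higher in farnesol (median log2 fold change 0.15), as were all 5 of the Q module (0.13), all 9 of the proximal arm (0.22) and 10 of 11 of the distal arm (0.17). The N module count includes Ndufs1 at 0.00, and Ndufa9, at the junction, was lower (−0.05). Farnesol replicate 1 was the highest library in 8 of 10, 5 of 5, 8 of 9 and 10 of 11 of these modules' subunits, in the same order. The module lists place Ndufab1 in the distal arm, although the protein is also bound in the other arm of the complex. The difference between modules was not tested.

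The assembly factors were scarcer and noisier than the core subunits. Mean counts were 69.3 to 483 per library against 1129 to 3506, and the median SE was 0.27 against 0.16. Over all genes tested the median SE was 0.29 and the median CPM 11.5, against 16.6 CPM for the assembly factors. Ndufaf3 and Ndufaf4 act together on the early Q module. Ndufaf3 stood at 21.6, 15.7 and 22.5 CPM in farnesol and 13.1, 16.8 and 15.7 CPM in vehicle libraries (log2 fold change 0.39, SE 0.23). Ndufaf4 stood at 39.8, 46.8 and 51.2 CPM in farnesol and 35.9, 45.7 and 47.9 CPM in vehicle libraries (0.09, SE 0.18). In both the groups overlap, and the lowest library was vehicle replicate 1. Ndufaf1, a member of the complex that builds the proximal membrane arm, stood at 15.5, 13.3 and 13.0 CPM in farnesol and 13.6, 13.6 and 7.88 CPM in vehicle libraries. Its log2 fold change of 0.26 (SE 0.27) was 0.04 without vehicle replicate 3, the low one.

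Ndufaf5 and Ndufaf7 are enzymes that each modify an arginine of a core subunit. Ndufaf5 stood at 48.7, 42.4 and 39.9 CPM in farnesol and 61.4, 52.0 and 22.5 CPM in vehicle libraries, so the vehicle libraries spanned all farnesol values. Ndufaf7 stood at 9.34, 8.37 and 6.40 CPM in farnesol and 8.34, 11.2 and 5.93 CPM in vehicle libraries, likewise spanning them. Ndufaf2, a paralogue of Ndufa12 that serves the N module, stood at 9.52, 2.18 and 5.26 CPM in farnesol and 6.61, 6.48 and 8.31 CPM in vehicle libraries; here the farnesol libraries spanned the vehicle ones. Ndufaf6, needed for the early membrane arm, stood at 13.9, 18.1 and 20.4 CPM in farnesol and 16.8, 13.8 and 16.6 CPM in vehicle libraries. The log2 fold changes were −0.05 (SE 0.29) for Ndufaf5, −0.08 (SE 0.32) for Ndufaf7, −0.34 (SE 0.41) for Ndufaf2 and 0.15 (SE 0.24) for Ndufaf6. With vehicle replicate 3 left out that of Ndufaf5 was −0.38, and with vehicle replicate 1 left out it was 0.23; that of Ndufaf2 was −0.95 without farnesol replicate 1 and 0.05 without farnesol replicate 2. With 1 library left out that of Ndufaf6 ran from 0.02 (farnesol replicate 3) to 0.29 (farnesol replicate 1), and that of Ndufaf7 from −0.28 (vehicle replicate 3) to 0.18 (vehicle replicate 2).

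The list of assembly factors outside the family name held 11 listed genes, 6 higher and 5 lower in farnesol with a median log2 fold change of 0.09; 0 had an unadjusted p under 0.05. Tmem186 and Tmem126b belong, with Ndufaf1, to the complex that builds the proximal membrane arm, and they differed in opposite directions. Tmem186 stood at 2.20, 6.70 and 1.75 CPM in farnesol and 5.18, 6.17 and 7.88 CPM in vehicle libraries (−0.84, SE 0.45). Tmem126b stood at 3.88, 3.43 and 4.64 CPM in farnesol and 0.767, 1.21 and 4.24 CPM in vehicle libraries (0.92, SE 0.56). Both rest on few counts and the groups overlap. Lyrm2, of N module assembly, had a log2 fold change of 0.43 (SE 0.28) and Timmdc1, of the early membrane arm, of 0.17 (SE 0.21). With vehicle replicate 3 left out that of Tmem126b was 1.997 and that of Timmdc1 0.03, and with vehicle replicate 1 left out they were 0.53 and 0.32. That of Tmem186 was −1.69 without farnesol replicate 2 and −0.53 without farnesol replicate 3, and that of Lyrm2 was 0.26 without farnesol replicate 1.

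Ndufa4, once counted with complex I, is a subunit of cytochrome c oxidase, and Ndufa4l2 is its paralogue, known as a target of hypoxia signalling. Ndufa4 stood at 93.4, 96.6 and 93.8 CPM in farnesol and 71.4, 80.1 and 81.5 CPM in vehicle libraries. The groups do not overlap, the farnesol libraries were nearly equal, and farnesol replicate 1 was not the highest, unlike in most complex I subunits. Its fold was 1.22 (0.978 to 1.52) and its log2 fold change 0.28 (SE 0.15), between 0.23 and 0.32 with 1 library left out. Ndufa4l2 stood at 5.99, 6.70 and 4.33 CPM in farnesol and 3.36, 5.97 and 2.80 CPM in vehicle libraries, with overlap (0.50, SE 0.40), and its log2 fold change was 0.29 with vehicle replicate 3 left out and 0.89 with vehicle replicate 2 left out.

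The remaining nuclear subunits of the respiratory chain and the ATP synthase showed a shift of the same kind. Of 41, 38 had a positive log2 fold change with a median of 0.22, against 49.1% of all genes tested. An unadjusted p under 0.05 in edgeR was reached by 7, all higher in farnesol (1.75% of all genes in this direction). In 15 the farnesol values all lay above the vehicle values, against 4.75% of all genes. How far this set depends on farnesol replicate 1 or on the scaling was not tested. Farnesol replicate 1 was the highest library in 28 of these 41 genes. The difference from complex I was not tested. Markers of other cells and fibres also differed between libraries. Slow fibre markers, from fibres rich in mitochondria, summed to 2124, 3217 and 2127 CPM in farnesol and 2232, 2335 and 1692 CPM in vehicle. Only the sum of farnesol replicate 2 lay above the highest vehicle sum. Of these markers 10 of 11 were positive, as were 14 of the 19 gastrocnemius fibre markers. Adipocyte markers summed to 2312, 2533 and 2780 CPM in farnesol and 1919, 2285 and 2309 CPM in vehicle libraries, with 15 of 15 tested members positive and Ucp1 at 0 in every library. Farnesol replicate 1, the highest library for the complex I sum, was not the highest in the slow fibre or the adipocyte list, but it was in the erythroid list. Erythroid markers summed to 9725, 8104 and 5472 CPM in farnesol and 3501, 5684 and 4456 CPM in vehicle libraries, with 5 of 7 positive. Macrophage markers, with sums of 173 to 213 CPM in farnesol and 150 to 309 CPM in vehicle libraries, were positive in 1 of 12. Endothelial markers, with sums of 112 to 148 CPM in farnesol and 119 to 158 CPM in vehicle libraries, were positive in 4 of 10. Their part in the complex I values was not tested.

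Transcript levels differed widely between subunits of the same enzyme. Per kilobase of the annotated principal transcript, mean levels of the 36 subunits ran from 11.1 CPM per kb for Ndufab1 to 803 CPM per kb for Ndufb8, with a median of 215. After Ndufb8 came Ndufb9 at 736, Ndufa2 at 635 and Ndufa5 at 535 CPM per kb; the values of Ndufb8 and Ndufb9 overlapped between libraries. Core subunits lay between 66.2 (Ndufs1) and 213 (Ndufs7) CPM per kb. Assembly factors lay between 4.73 (Ndufaf7) and 38.2 (Ndufaf5) CPM per kb, all of them below every subunit other than Ndufab1. Division by length suits reads spread over a transcript; a 3′ tag is designed to be counted once per transcript, and how far these libraries kept to that was not tested. In CPM without division, the subunits ran from 15.7 to 546 and the assembly factors from 6.39 to 44.5. Principal transcripts of Ndufb2 are annotated at 455 to 4371 bases, those of Ndufab1 at 1416 to 3479 and those of Ndufs7 at 758 to 983. The shorter length was used, and the place of Ndufs7 above Ndufv1 (194 CPM per kb) depends on it. Principal transcripts of Ndufs1, Ndufs5 and Ndufs8 also differ in length.

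**Figure D5:**
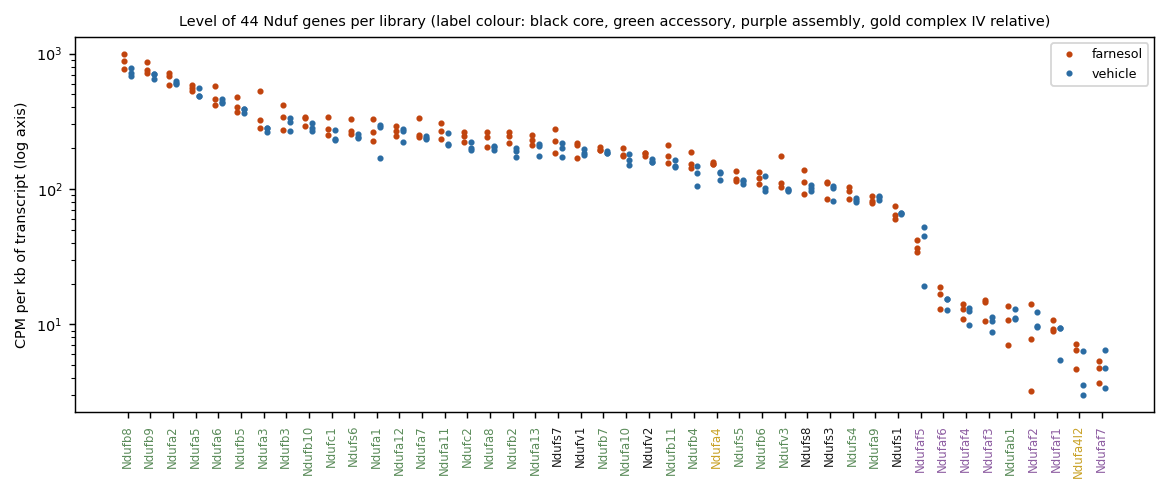
CPM per kb of principal transcript on a log axis for 44 Nduf genes, ordered by mean, with each farnesol library (left, orange) and each vehicle library (right, blue) as a point. The subunits other than Ndufab1 run from Ndufb8 at 803 to Ndufs1 at 66.2, Ndufab1 at 11.1 lies among the assembly factors, and the groups overlap in most genes.

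Some members share sequence with other genes, and their counts are uncertain. Ndufs5, a cysteine-rich subunit of the proximal arm (chromosome 4, 123712710 to 123718186), stood at 71.7, 61.7 and 59.8 CPM in farnesol and 61.1, 59.9 and 57.1 CPM in vehicle libraries. The groups overlap, and the log2 fold change was 0.12 (SE 0.16), or 0.03 without farnesol replicate 1. The processed pseudogene BC002163 matched 186 of the last 300 bases of an Ndufs5 transcript at 100% identity, and it held more counts than Ndufs5 in every library, at 109, 86.2 and 91.6 CPM in farnesol and 96.1, 85.3 and 87.9 CPM in vehicle libraries. The pair together stood at 160 ± 18.1 CPM in farnesol and 149 ± 6.94 CPM in vehicle libraries (SD, n = 3 each), and Ndufs5 took 38.9% to 41.7% of it. Which of the 2 genes gave the reads cannot be told from counts per gene. Near-identical copies were also annotated for Ndufb2, Ndufb11, Ndufs3 and Ndufs6 and were not analysed here, and the end of Ndufaf7 matched several genes in part. The match of Ndufb6 was Smim27, which overlaps 257 bases of its end on the opposite strand and is not among the counted genes. The last 500 bases of 6 members overlapped exons of an opposite-strand gene in the tables. The longest such overlap was 146 bases of Braf on Ndufb2, and Braf held 1134 counts over the 6 libraries. Shmt2 held more, 1224, and overlapped 32 bases of Ndufa4l2, which had a mean of 52.8 counts per library. Whether strand was used in counting is not given in the sources used here. Same-strand exons of genes not among the counted ones overlapped Ndufb2 (145 bases), Ndufb8 (134) and Ndufb9 (180).

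Promoters were available for 39 of the 45 members in RefSeq's GRCm38.p6 annotation, as the 250 bases before and 50 after the annotated start. They were searched on both strands for a palindromic 10-base motif of NRF1 (the capitals of the NRF1 windows), of ETS factors such as GABP (CCGGAAG), of the oestrogen-related receptors (TCAAGGTCA) and of YY1 (AAGATGGCG), all regulators known to act on respiratory chain genes. The YY1 letters were found in 5 of 39 (12.8%), against 3.73% of the promoters of tested genes and 1.64% of all 27025 genes with a promoter. The NRF1 letters were found in 3 (7.69%, against 2.38% and 1.07%), the ETS letters in 5 (12.8%, against 20.0% and 9.93%) and the receptor letters in 0 (against 0.327% and 0.466%). A match is a description of the letters and not a binding site. The windows with the YY1 and NRF1 letters are shown to let the members be compared, 5′ to 3′ on the gene's strand, with the matched letters in capitals.
Ndufa9, chr6:126849097-126849125, minus strand, YY1: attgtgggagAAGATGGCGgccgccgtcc
Ndufc1, chr3:51408915-51408943, minus strand, YY1: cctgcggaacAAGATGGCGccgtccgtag
Ndufs4, chr13:114388045-114388069, minus strand, YY1: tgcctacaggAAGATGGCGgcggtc
Ndufs6, chr13:73328433-73328459, minus strand, YY1: ggtcaccggcAAGATGGCGgcggtgct
Ndufs7, chr10:80249463-80249491, plus strand, YY1: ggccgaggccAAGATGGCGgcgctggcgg
Ndufa11, chr17:56717692-56717721, plus strand, NRF1: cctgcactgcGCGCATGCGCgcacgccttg
Ndufaf4, chr4:24897960-24897989, plus strand, NRF1: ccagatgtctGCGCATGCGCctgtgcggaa
Ndufaf5, chr2:140170652-140170681, plus strand, NRF1: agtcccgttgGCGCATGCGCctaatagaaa

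All 5 YY1 matches began at base 23 to 36 after the start used in the promoter table, on the gene's own strand, and in all 5 the ATG within the capitals is the annotated start codon of the subunit in GENCODE vM21. The letters therefore also spell the beginning of the reading frame. The 3 NRF1 matches began 60 and 113 bases before the start in Ndufa11 and Ndufaf4 and at base 17 after it in Ndufaf5. The log2 fold changes of the members with the YY1 letters were −0.05 for Ndufa9, 0.22 for Ndufc1, 0.19 for Ndufs4, 0.21 for Ndufs6 and 0.20 for Ndufs7. The 3 subunits with an unadjusted p under 0.05 in edgeR (Ndufb2, Ndufa3 and Ndufv3) held 0 of the 4 motifs in this window. Most genes hold 0 of them: any of the 4 was found in 13 of 39 members (33.3%) and in 24.8% of tested genes with a promoter. A link between motifs and fold changes was not tested.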

How the data were processed

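QuantSeq 3′ libraries were made from 500 ng of total RNA, per the labels' protocols. Each library has a table, deposited by the authors, of unnormalized counts by gene symbol. Per the submitters' processing notes, Bowtie2, bedtools and mm10 were used. Versions, annotation, strand and the handling of multiply matching reads were not stated in the sources. Counts of 35 repeated symbols, none of them members, were summed. All 11674 genes left by filterByExpr were fitted in edgeR 4.0.16 (R 4.3.3; TMM factors, glmQLFit with robust = TRUE, glmQLFTest, Benjamini-Hochberg adjustment over all genes, threshold 0.05). Each SE was derived by dividing the size of the log2 change by the root of its F statistic. The fit was tested on simulated data with changes larger than those of the members. That simulation does not show how well changes of the members' size are found. The common biological coefficient of variation was 25.7%. A count of 0 allows up to 3 counts, 0.251 to 0.310 CPM by library, which covers counting error only. Deviations used log2 CPM with a prior count of 2 for class means. Class and module lists, motifs and members were chosen with earlier results of these data known. Named in full were the core subunits (1 is counted in its class but not reported by itself here), assembly factors and complex IV relatives, the 6 accessory subunits of smallest p, the 3 highest and 3 lowest in mean CPM, and 4 outside assembly factors of smallest p. Alternatives used DESeq2 1.42.0, limma 3.58.1, other scalings and filters, a replicate block and leaving out each library. Copies were searched by blastn with the last 300 bases of principal transcripts (at least 95% identity over 150 bases). Positions are 1-based, from RefSeq's GRCm38.p6 table, whose chromosomes are those of mm10.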

Additional observations from a re-analysis of the deposited data

How the results depend on the processing

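Over 16 alternatives (other scalings and filters, DESeq2, limma-voom, a replicate block and each library left out), the medians of all members, core subunits, accessory subunits and assembly factors stayed positive. Without any filter on low counts 13 genes were called in place of 0, and with 1 library left out 0 to 3. With a replicate block, 5 members had an unadjusted p under 0.05 in place of 3, as did 428 of all 11674 genes in place of 351; with 1 library left out, 0 to 5 members and 315 to 460 of all genes had one. With total-count scaling, 3 members had all farnesol values above all vehicle values in place of 8 (3.91% of all genes), and with 1 library left out 9 to 19, against 9.03% to 9.96% of all genes. Reversed log2 fold changes were those of Ndufaf5, at 0.025 with total counts, 0.087 with limma-voom and 0.051 with the replicate block, and of Ndufs1, at -0.00016 with RLE factors, -0.00038 with DESeq2, -0.0046 with limma-voom and -0.0046 with the replicate block. With 1 library left out, the ranges that changed sign were -0.95 to 0.054 for Ndufaf2, -0.029 to 0.18 for Ndufaf4, -0.38 to 0.23 for Ndufaf5, -0.28 to 0.18 for Ndufaf7, -0.097 to 0.069 for Ndufs1, -0.017 to 0.21 for Ndufs3 and -0.40 to 0.061 for Ndufab1; the cause was not tested. Libraries with the same number hardly deviated together (correlations 0.04, 0.06 and -0.02 for replicates 1, 2 and 3), and those with different numbers correlated at -0.07 to 0.04. Replicates 1 and 2 each correlated best with their own number, replicate 1 by a narrow margin, and replicate 3 did not. With correlations this small, the numbers were not taken as pairs. Mean counts per library were 69.3 to 483 for the assembly factors and 1129 to 3506 for the core subunits; how far depth sets the error of each was not tested.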
